A study of Rattus norvegicus with 12 samples.

Results

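Transcripts of 9 genes that p53 is known to activate are described here in rat brain tumours with and without EGFRvIII: Cdkn1a, Mdm2, Gadd45a, Phlda3, Sesn1, Sesn2, Ccng1, Bax and Btg2. They were found by gene symbol in the probe annotation. Of these 9 genes, 8 had a probe on the array, 1 each, and Btg2 was not analysed here. Among the 8, 6 passed the filter on dim probes and were tested with 11695 genes in all, while Sesn2 and Bax are given as values only.

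The samples were 12 tumours, each from a female Fischer rat aged 4 to 6 weeks, grown from 9L gliosarcoma cells injected into the cortex and removed after 3 weeks. In 6 rats the cells had been transfected to express EGFRvIII, a mutant epidermal growth factor receptor that lacks part of its outer domain and signals without ligand, and in 6 they carried the empty vector (EV). No tumour received treatment. All rats of a group received what the labels describe as a single line, made by transfection and zeocin selection; the rats do not replicate that step, and EGFRvIII and other differences between the lines cannot be told apart. Egfr had a single probe, above background in 0 of the 12 tumours, and the labels do not say whether this probe would bind the introduced transcript, so it does not check the groups.

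p53 is a transcription factor that is held at a low level by the ubiquitin ligase Mdm2 and accumulates after DNA damage or other stress. It then raises genes that stop the cell cycle (Cdkn1a, Gadd45a, Btg2), genes that promote cell death (Bax), genes that limit growth signalling (Sesn1, Sesn2, Phlda3) and its own inhibitors (Mdm2, Ccng1). Several of these genes also answer to other factors, among them ATF4 in the integrated stress response and the FOXO factors that growth factor signalling through AKT restrains.

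Of the 6 tested members, 3 were higher in EGFRvIII tumours (Gadd45a, Phlda3 and Cdkn1a), 1 was lower (Sesn1) and 2 were not called (Mdm2 and Ccng1). Over all genes tested, 21.5% were called, 11.1% higher and 10.4% lower, at a Benjamini-Hochberg adjusted p of 0.05 with limma. With 6 genes, the members' 4 calls are a count and not a property of the group. Their median change was 0.55 on the log2 scale, against 0.01 over all genes, but it spans a rise and a fall of more than 2-fold. The ranges of the groups did not overlap for 3 members and for 11.1% of all genes. All levels below are normalized log2 intensities, and levels of different probes are not compared.

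Gadd45a, a small nuclear protein induced by DNA damage and other stress that acts on the cell cycle and on stress kinases, had the largest rise of the members. Its log2 levels in EV rats 1 to 6 were 8.67, 9.22, 9.21, 8.73, 8.46 and 9.08, and in EGFRvIII rats 1 to 6 they were 9.53, 10.53, 10.08, 10.48, 10.16 and 9.50. The groups did not overlap, although EGFRvIII rats 1 and 6 lay closer to the EV tumours than the other 4 did. The mean rose from 8.90 ± 0.32 to 10.05 ± 0.45 (SD, n = 6 each), a change of 1.15 ± 0.20 (SE) or 2.22-fold, with a limma adjusted p of 0.00156.

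Cdkn1a encodes p21, the inhibitor of cyclin-dependent kinases through which p53 arrests the cell cycle. It was dim: its log2 levels in EV rats 1 to 6 were 4.89, 4.83, 4.57, 4.90, 5.28 and 4.55, and EV rats 3 and 6 were not above background. In EGFRvIII rats 1 to 6 the levels were 5.96, 5.12, 5.38, 6.18, 5.89 and 5.21, and all 6 tumours were detected. The groups overlapped, since EV rat 5 lay above EGFRvIII rats 2 and 6. The mean rose from 4.84 ± 0.27 to 5.62 ± 0.44, a change of 0.78 ± 0.19 or 1.72-fold (limma adjusted p = 0.011). The added offset draws dim values together, and in the authors' value table the Cdkn1a change was 1.49 (limma adjusted p = 0.0113).

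Phlda3, a pleckstrin homology domain protein that competes with AKT for membrane lipids, rose in every EGFRvIII tumour. Its log2 levels were 8.63, 8.07, 8.10, 8.53, 8.56 and 8.66 in EV rats 1 to 6, and 9.11, 9.16, 9.19, 9.65, 9.16 and 9.01 in EGFRvIII rats 1 to 6. The groups did not overlap, and EGFRvIII rat 4 stood above the other 5, which lay within a narrow band. The change was 0.79 ± 0.14 or 1.73-fold (limma adjusted p = 0.00164), from 8.42 ± 0.27 to 9.21 ± 0.22.

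Sesn1, a sestrin that restrains mTORC1 and that p53 and FOXO factors are known to induce, moved the other way and had the largest change of all members. In EV rats 1 to 6 its log2 levels were 8.53, 9.46, 8.86, 8.73, 8.59 and 8.75, and in EGFRvIII rats 1 to 6 they were 7.50, 7.29, 7.71, 7.42, 7.42 and 7.59. The groups lay far apart, and EV rat 2 was the highest tumour. The mean fell from 8.82 ± 0.33 to 7.49 ± 0.15, a change of -1.33 ± 0.15, or 2.52-fold lower (limma adjusted p = 6.9e-05). It ranked at 105 among the falls of all genes, while Gadd45a ranked at 230 among the rises. EV rat 2 also held the most brain transcripts, with a mean of neuron markers of 9.07 against 5.01 to 7.40 in the other EV tumours. Without EV rat 2 the fall of Sesn1 was -1.20, and with the brain marker mean as a covariate it was -1.20 as well, both past the threshold.

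Sesn2, a paralogue of Sesn1 that senses leucine and that ATF4 also induces, was detected on 0 of 12 arrays. Its deposited signals ran from -4.8 to 5.8, so no direction or fold is given.

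**Figure D1:**
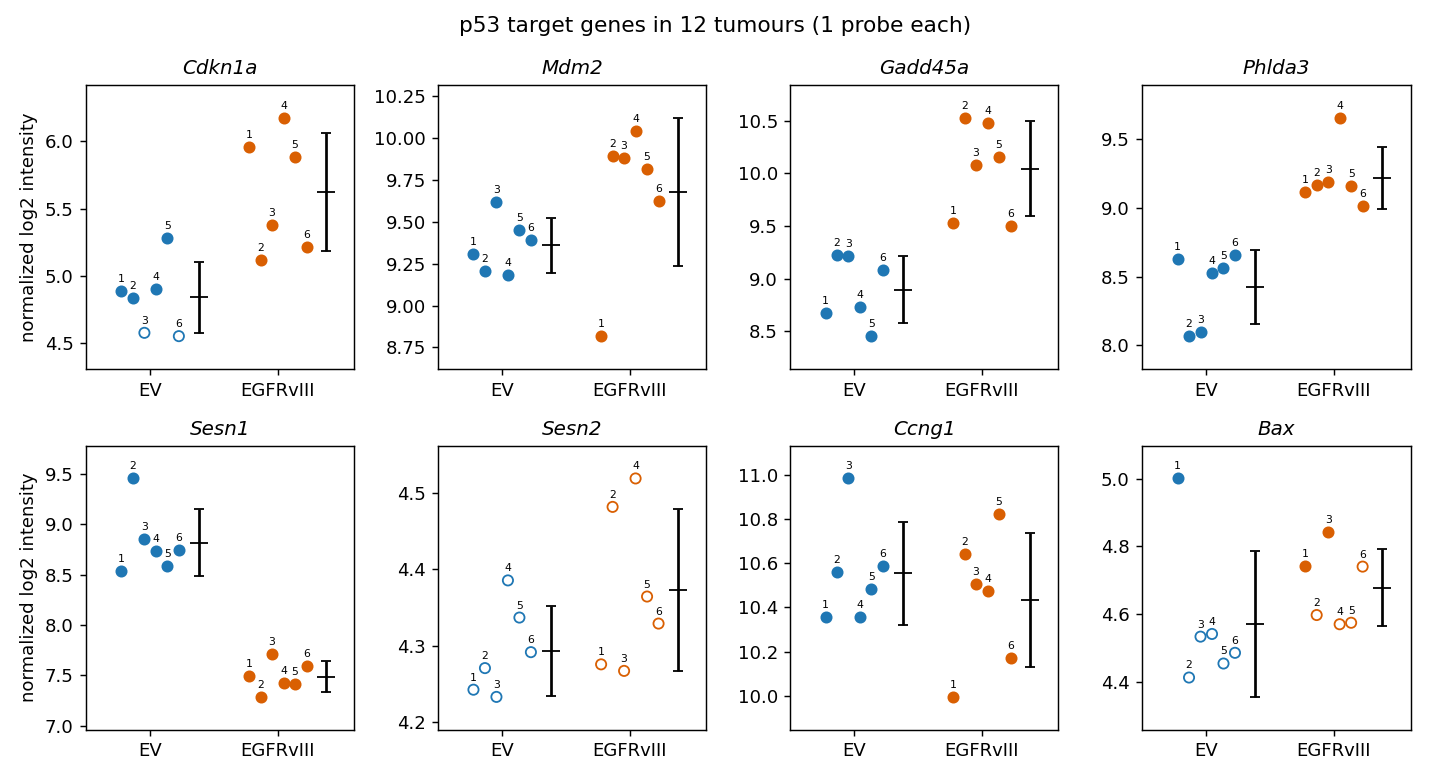
Normalized log2 intensity of the 8 members with a probe in 6 EV and 6 EGFRvIII tumours, numbered by rat. Filled points were above background at a detection p under 0.05, open points were not, and bars are mean ± SD. Gadd45a, Phlda3 and Sesn1 show no overlap of the groups, Cdkn1a overlaps at EV rat 5, and Sesn2 is open in all 12 tumours.

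Mdm2, the ligase that degrades p53 and is itself a p53 target, did not pass the test over all 12 tumours. Its log2 levels were 9.30, 9.20, 9.62, 9.18, 9.45 and 9.39 in EV rats 1 to 6, and 8.82, 9.89, 9.88, 10.04, 9.81 and 9.62 in EGFRvIII rats 1 to 6. EGFRvIII rats 2 to 5 lay well above every EV tumour, EGFRvIII rat 6 was level with the highest of them, EV rat 3, and EGFRvIII rat 1 lay below every EV tumour. The change was 0.32 ± 0.18 (limma adjusted p = 0.224), and without EGFRvIII rat 1 the Mdm2 change was 0.49 (limma adjusted p = 0.00715). EGFRvIII rat 1 held the most neuron marker transcript of its group (mean 7.64, against 5.10 to 6.08 in the other 5). The part of these markers in its Mdm2 level was not tested, but with the brain marker mean as a covariate in all 12 tumours the change of Mdm2 was 0.19 (limma adjusted p = 0.46).

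Ccng1, which encodes cyclin G1 and takes part in the feedback on p53 through Mdm2, was bright, and the groups overlapped over most of their range. Its log2 levels were 10.36, 10.56, 10.99, 10.35, 10.48 and 10.59 in EV rats 1 to 6, and 9.99, 10.64, 10.50, 10.48, 10.82 and 10.17 in EGFRvIII rats 1 to 6. The lowest 2 tumours were EGFRvIII rats 1 and 6, at 9.99 and 10.17, and the highest was EV rat 3. The change was -0.12 ± 0.15 (limma adjusted p = 0.607), and its sign turned to 0.03 when arrays were scaled to the median of the kept probes.

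Bax, the pore-forming protein of mitochondrial apoptosis, was above background on 1 of 6 EV and 2 of 6 EGFRvIII arrays and was not tested. Its deposited signals ran from 4.3 to 17.7, the highest in EV rat 1, and no fold is given. The 1 probe per gene leaves no second probe to compare for any member.

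The promoter windows of the 4 called members are shown because these genes share an activator in p53 but did not move together. RefSeq windows on GRCr8, from 250 bases before to 50 bases after the start site used in that table, were found for 8 of the 9 members, and Bax had none. Capitals mark a match to the p53 decamer, the 10-base consensus that occurs as a pair in a complete p53 site.

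Cdkn1a, chr20:7150682-7150981, plus strand: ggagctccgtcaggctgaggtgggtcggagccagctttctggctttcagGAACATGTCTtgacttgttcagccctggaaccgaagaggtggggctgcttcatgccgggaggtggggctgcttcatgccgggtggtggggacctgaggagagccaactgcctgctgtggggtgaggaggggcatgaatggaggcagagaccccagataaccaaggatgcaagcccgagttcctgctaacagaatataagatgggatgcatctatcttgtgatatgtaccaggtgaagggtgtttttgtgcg
Gadd45a, chr4:97486750-97487049, minus strand: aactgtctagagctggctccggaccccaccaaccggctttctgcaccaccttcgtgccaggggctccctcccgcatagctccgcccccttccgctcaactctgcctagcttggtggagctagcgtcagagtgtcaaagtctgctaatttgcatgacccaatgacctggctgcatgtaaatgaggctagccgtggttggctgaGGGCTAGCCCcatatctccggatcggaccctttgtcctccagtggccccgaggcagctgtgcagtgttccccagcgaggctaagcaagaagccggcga
Phlda3, chr13:49744753-49745052, plus strand: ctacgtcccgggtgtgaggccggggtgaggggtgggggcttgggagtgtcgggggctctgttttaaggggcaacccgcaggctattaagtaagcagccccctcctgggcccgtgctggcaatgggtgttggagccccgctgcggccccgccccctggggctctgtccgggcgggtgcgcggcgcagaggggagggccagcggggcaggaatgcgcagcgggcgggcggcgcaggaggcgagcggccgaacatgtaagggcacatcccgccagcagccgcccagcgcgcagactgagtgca
Sesn1, chr20:46948469-46948768, plus strand: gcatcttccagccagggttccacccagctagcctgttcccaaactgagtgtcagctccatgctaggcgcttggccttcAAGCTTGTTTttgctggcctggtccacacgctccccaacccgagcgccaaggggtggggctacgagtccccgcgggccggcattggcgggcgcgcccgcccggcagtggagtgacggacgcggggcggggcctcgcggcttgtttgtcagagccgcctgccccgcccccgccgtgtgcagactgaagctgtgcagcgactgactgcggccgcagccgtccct

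An exact decamer was found in 4 of 8 members' windows, those of Cdkn1a, Gadd45a, Sesn1 and Ccng1, and in 7.98% of 33469 windows of all genes. So a match was present in the window of a member that fell and of a member that was not called, and absent from that of Phlda3, which rose. Only 1 window per member was scanned, and that of Sesn1 lies inside the annotated gene (chr20:46876918-46970010). The window of Mdm2 (chr7:55200742-55201041, minus strand) also lies inside its annotated gene (chr7:55176558-55201757). Other start sites and sequence outside these windows were not examined, so absence of a match here does not mean absence of a site. In Cdkn1a the decamer GAACATGTCT, at chr20:7150731-7150740, was followed with no gap by a second decamer that departs from the consensus at 1 base, giving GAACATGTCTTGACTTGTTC. A pair of this kind, with at most 13 bases between the decamers and at most 1 mismatch in 1 of them, occurred in 335 of 33469 windows and in 3 members, Cdkn1a, Gadd45a and Ccng1. The FOXO motif GTAAACA was found on either strand in 3.78% of all windows and, among the members, in that of Mdm2. The ATF4 motif TGATGNAA was found in 3.98% of all windows and in 0 of the 8 members' windows. No member's window held both the p53 decamer and either of these motifs, so their overlap could not be examined. Letters in a window do not show binding.

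Among paralogues of the members, the families split. Their list holds 12 genes, of which 11 were tested: 1 rose, 4 fell and 6 did not pass, at a median of -0.24, or -0.11 without EGFRvIII rat 2. Called were 45.5% of them, against 21.5% of all genes (11.1% higher and 10.4% lower). Gadd45g, a stress-inducible relative of Gadd45a, rose from 7.07 ± 0.36 to 8.38 ± 0.32 (1.31 ± 0.19, limma adjusted p = 3.8e-04), with no overlap of the groups, while Gadd45b was at 0.24 ± 0.19 and not called. Sesn3, a sestrin that FOXO factors induce, fell with Sesn1 from 6.62 ± 0.33 to 5.93 ± 0.27 (-0.69 ± 0.17, limma adjusted p = 0.0116). Its lowest EV tumour, EV rat 2 at 6.07, lay below EGFRvIII rats 4 and 6. Thus both sestrins that could be tested were lower in EGFRvIII tumours. Phlda1, a relative of Phlda3, fell by 1.18 on the log2 scale (limma adjusted p = 0.00129), opposite to Phlda3. Ccng2, which encodes cyclin G2 and is known as a FOXO target, fell by 0.72 on the log2 scale (limma adjusted p = 0.0183). The Ccng2 change was not called without EV rats 2 and 3 (adjusted p = 0.0563) or without EV rat 2 and EGFRvIII rat 1 (adjusted p = 0.0521). Cdkn1b, the p27 inhibitor of cyclin-dependent kinases, was the remaining called paralogue and was named after its values were seen. It went from 8.06 ± 0.29 to 7.45 ± 0.19 (-0.61 ± 0.15, limma adjusted p = 0.00912), so Cdkn1a and Cdkn1b changed in opposite directions.

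**Figure D2:**
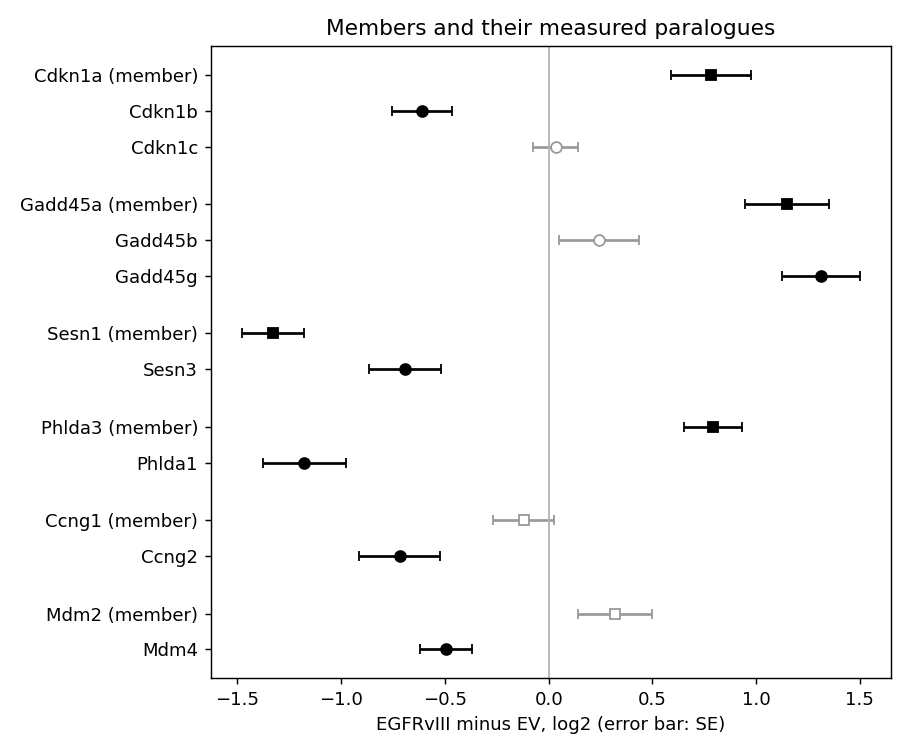
Change between EGFRvIII and EV tumours on the log2 scale, with its SE, for the tested members (squares) and tested paralogues of their families (circles), with Mdm4 beside Mdm2; Btg and Tob paralogues are not drawn. Filled marks passed the adjusted p of 0.05. Gadd45a and Gadd45g lie to the right, Sesn1 and Sesn3 to the left, and Cdkn1a and Cdkn1b on opposite sides.

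Genes that control p53 were called about as often as all genes. Of 16 regulators and relatives of p53, 9 were tested, 0 were higher, 2 were lower and 7 were not called by limma. Called were 22.2% of them, against 21.5% of all genes (11.1% higher and 10.4% lower). At an unadjusted p of 0.05, 0 were higher as well. Mdm4, which binds and inhibits p53, fell from 8.32 ± 0.22 to 7.82 ± 0.17 (-0.49 ± 0.12, limma adjusted p = 0.0126) with no overlap of the groups. Ppm1d, a phosphatase that reverses p53 activation and is itself a p53 target, was at -0.55 ± 0.18 (limma adjusted p = 0.0448), a call lost without any one of 10 of the 12 arrays (adjusted p up to 0.0952).

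Other genes known as p53 targets mostly did not pass. Of 40, 18 were tested, 1 was higher, 1 was lower and 16 were not called (median 0.05), so 11.1% of them were called against 21.5% of all genes. Ptprv, a receptor tyrosine phosphatase known as a p53 target in mouse, rose from 5.62 ± 0.43 to 7.22 ± 0.26 (1.59 ± 0.20, limma adjusted p = 1.4e-04) without overlap of the groups. Xpc, a DNA damage sensor of nucleotide excision repair, was at -0.40 ± 0.13 (limma adjusted p = 0.038), a call lost without any one of 8 arrays (adjusted p up to 0.087). Of the BCL2 family apart from Bax, 12 were tested, 2 were higher and 10 were not called (median 0.06). Bnip3, a mitochondrial protein that hypoxia induces, rose from 10.05 ± 0.25 to 11.23 ± 0.44 (1.18 ± 0.19, limma adjusted p = 7.9e-04). Bok was at 0.35 ± 0.11, a call lost without any one of 8 arrays (adjusted p 0.0389, and up to 0.0868).

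Genes of the ATF4 pathway, which is known to raise Gadd45a and Sesn2, moved mostly upward. Among 18 tested genes 11 rose, 1 fell and 6 did not pass, at a median of 0.51. Called were 66.7% of them, against 21.5% of all genes. The number that rose was 6 with arrays scaled to the median of all probes, 7 with the rat number as a replicate block and 5 without EV rats 2 and 3. Asns, asparagine synthetase, rose from 6.14 ± 0.16 to 7.47 ± 0.59 (1.34 ± 0.23, limma adjusted p = 0.0014), and Shmt2, a mitochondrial enzyme of serine metabolism, by 1.13 ± 0.17 (limma adjusted p = 6.3e-04). In both genes the groups did not overlap. Trib3, a pseudokinase induced by ATF4, rose by 0.99 ± 0.28 (limma adjusted p = 0.0238). With the rat number as a replicate block its adjusted p was 0.0761. The exception was Ddit4, an inhibitor of mTORC1, which fell by 1.39 on the log2 scale (SE 0.36, limma adjusted p = 0.014). Without EV rats 2 and 3 the Ddit4 change was -0.99 and not called (adjusted p = 0.0601).

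The listed FOXO factors and targets went both ways. Of 8 tested, 2 were higher, 3 were lower and 3 were not called (median -0.09). Over all genes, 11.1% were higher and 10.4% lower. Sesn1, Sesn3 and Ccng2, also known as FOXO targets, are not in this list or its counts, and each was called lower. Cdkn1a, Gadd45a and Bnip3, which FOXO factors are also known to induce, are outside it too and were called higher. The balance therefore depends on how genes were assigned to lists. Pik3ip1, an inhibitor of PI3-kinase, had the largest change of the list and fell from 7.52 ± 0.68 to 5.85 ± 0.48 (-1.67 ± 0.30, limma adjusted p = 0.0018), with no overlap of the groups. Txnip, which binds thioredoxin and restrains glucose uptake, fell from 12.04 ± 0.54 to 10.69 ± 0.38 (-1.35 ± 0.24, limma adjusted p = 0.00149). Foxo3 itself, named after its values were seen as the remaining lower gene, was at -0.61 ± 0.19 (limma adjusted p = 0.0389), a call lost without any one of 7 arrays (adjusted p up to 0.0822). The 2 higher genes were Cited2, a transcriptional co-regulator (0.63 ± 0.15), and Klf6, a zinc finger transcription factor (0.62 ± 0.16).

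**Figure D3:**
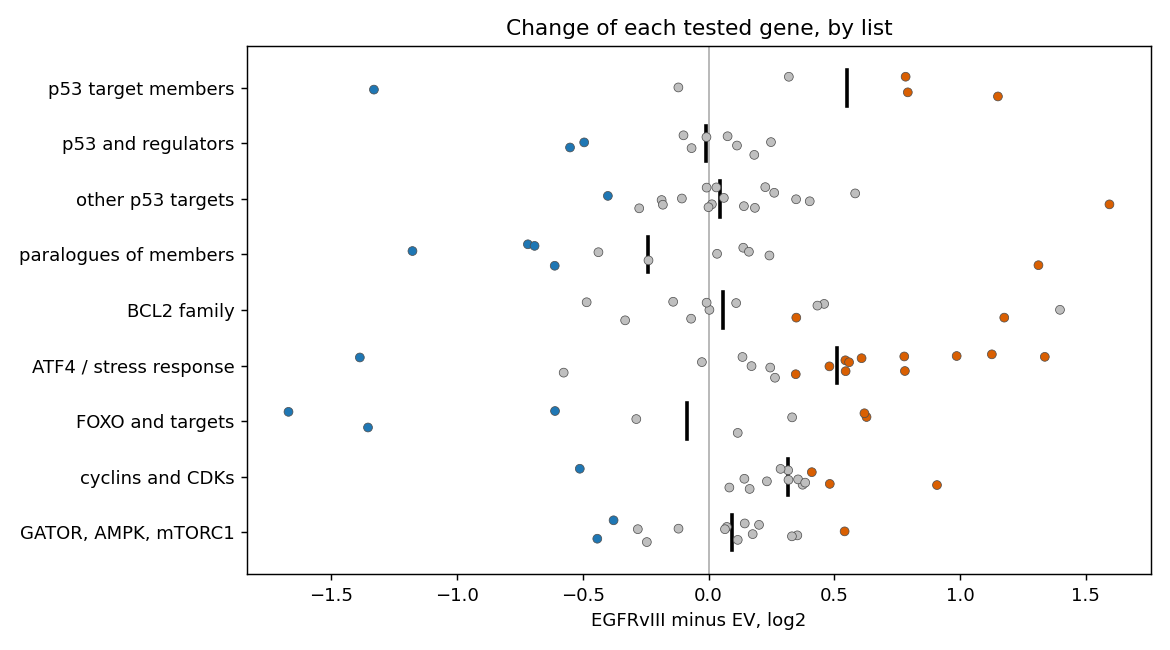
Change between EGFRvIII and EV tumours on the log2 scale for every tested gene of 9 lists, 1 point per gene, orange where called higher, blue where called lower and grey where not called. Black bars are list medians. The ATF4 list lies mostly to the right (11 of 18 higher), and the other p53 targets lie around 0 with 1 call on each side.

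Cyclins and cyclin-dependent kinases, on which p21 acts, were listed together with markers of division. Among 14 tested genes 3 rose, 1 fell and 10 did not pass, at a median of 0.32. Called were 28.6% of them, against 21.5% of all genes. In all, 13 changes were above 0, or 10 with arrays scaled to the median of all probes. The median was 0.18 without EV rat 2 and 0.12 without EV rats 2 and 3, and the number that rose was 1 without EV rat 3, EGFRvIII rat 2 or EGFRvIII rat 5. Cdc20, an activator of the anaphase-promoting complex, rose from 9.13 ± 0.47 to 10.04 ± 0.28 (0.91 ± 0.20, limma adjusted p = 0.00615), whereas Ccnd1, cyclin D1, fell from 13.02 ± 0.11 to 12.51 ± 0.09 (limma adjusted p = 3.1e-04). The fall of Ccnd1 was -0.17 and not called (adjusted p = 0.128) when arrays were scaled to the median of the kept probes. Ccnb2 and Cdk6 were at 0.48 ± 0.14 and 0.41 ± 0.13, calls lost without any one of 4 and of 7 arrays (adjusted p up to 0.0575 and 0.0808). EV rat 2 had the lowest mean of this list (8.10, against 8.55 to 8.86 in the other EV tumours). Of 14 tested genes through which sestrins act on mTORC1, 1 was higher, 2 were lower and 11 were not called (median 0.09). Sec13 rose by 0.54 ± 0.14 (limma adjusted p = 0.017), a call lost with arrays scaled to the median of all probes, where the Sec13 change was 0.37 (adjusted p = 0.13). Wdr24 and Tsc2 were at -0.44 ± 0.13 and -0.38 ± 0.13, calls lost without any one of 6 and of 10 arrays (adjusted p up to 0.0764 and 0.107).

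Within groups the members did not vary as 1 unit. After the group means were subtracted, Gadd45a followed Ccng1 (r = 0.75) and Mdm2 (r = 0.61) over the 12 tumours, and Mdm2 followed Ccng1 (r = 0.74). EGFRvIII rats 1 and 6 were the lowest 2 of their group in all 3 of these. Cdkn1a followed none of them (r from -0.21 to -0.19) and lay nearest to Phlda3 (r = 0.45). Phlda3 and Sesn1 ran against each other (r = -0.62), with EV rat 2 lowest in Phlda3 and highest in Sesn1, and r was -0.44 without that tumour. These are descriptions of 12 arrays that share normalization, with 2 groups of different spread.

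By the same measure, over 8382 other named genes, the patterns nearest to Sesn1 were those of Pink1 (r = 0.94), Tgfa (r = 0.94) and Acer2 (r = 0.92). EV rat 2 was the highest of all tumours in these 3 genes as in Sesn1. Without it, an alternative added after the data had been seen, r was 0.76 for Pink1, 0.75 for Tgfa and 0.82 for Acer2 over 11 tumours. Tgfa was dim, and was detected in 3 EV and 3 EGFRvIII tumours only. Nearest to Gadd45a were Polb (r = 0.92), Morf4l2 (r = 0.90) and Tmem183a (r = 0.90), and to Phlda3 they were Ankrd24 (r = 0.93), E2f3 (r = 0.93) and Tma16 (r = 0.92). For Cdkn1a the nearest patterns were weaker, at r = 0.84 for Ptpn7, 0.84 for Tsn and 0.83 for Ppp1r1c. Of these 12 genes, Tmem183a, Ankrd24 and Tma16 were called higher and Acer2 lower between the groups (-1.54 ± 0.37, limma adjusted p = 0.00983), and the other 8 were not called.

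In whole tumours, fewer cells of a type and less RNA per cell cannot be told apart, and marker transcripts of several cell types differed between the groups. Over all genes, 21.5% were called, 11.1% higher and 10.4% lower. The share called was near this for astrocyte markers (22.2%) and below it for oligodendrocyte markers (14.3%). Endothelial markers were lower in 6 of 9 tested genes, with a mean of 7.57 to 7.91 in EV and 6.59 to 7.45 in EGFRvIII tumours. The 2 largest changes were in Slco1c1 (-1.89 ± 0.42) and Plvap (-1.52 ± 0.42). Fibroblast and meningeal markers were lower in 6 of 9 genes and higher in 1 (mean 8.76 to 10.77 against 7.78 to 8.60), with Postn at -2.56 ± 0.36 and Dpt at 1.94 ± 0.35. Macrophage markers were higher in 4 of 12 genes and lower in 0 (mean 7.02 to 8.59 in EV and 8.53 to 9.75 in EGFRvIII tumours), led by Mrc1 (3.57 ± 0.45) and Trem2 (2.67 ± 0.21), and 8 were not called. Astrocyte markers were lower in 2 of 9 genes, Clu and Gja1. Gja1 did not follow the mean of its list in EV tumours. It was at 13.08 in EV rat 2, where that mean was highest (10.55), and at 13.19 in EV rat 1, where that mean was lowest (7.57). Oligodendrocyte markers were called higher in 1 of 7, Aspa, which was dim (4.73 in EV and 5.23 in EGFRvIII tumours, detected in 3 of 6 EV tumours). Aspa was the only 1 of these 7 genes with a change above 0, at a list median of -0.49. Without EV rat 2, 5 of the 7 changes were above 0, at a median of 0.09. Of 8 neuron markers and of 8 T and NK cell markers, 0 were called by limma, and 0 at an unadjusted p of 0.05. Neuron marker means ran from 5.01 to 9.07 in EV and from 5.10 to 7.64 in EGFRvIII tumours. The part of these transcripts in the changes of the members was not tested beyond the brain marker covariate.

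**Figure D4:**
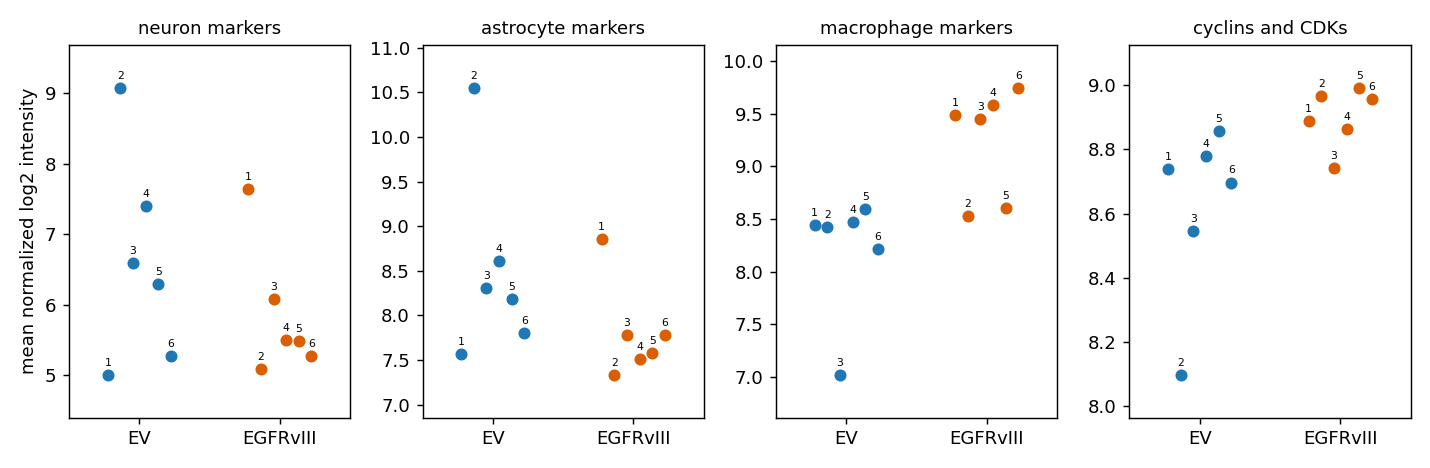
Mean normalized log2 intensity of neuron, astrocyte and macrophage markers and of cyclins and cyclin-dependent kinases in each tumour, numbered by rat. EV rat 2 is highest in neuron and astrocyte markers and lowest in cyclins, and EGFRvIII rat 1 is the highest EGFRvIII tumour in neuron and astrocyte markers.

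The arrays detected 11720 to 12719 probes in EV tumours and 11182 to 12040 in EGFRvIII tumours, and EGFRvIII arrays were dimmer (upper quartile of the signal 98.7 to 121.0, against 129 to 155). Each called member that was tested kept its direction and its call in every alternative tried, including each of the 12 arrays left out in turn. Over these alternatives the change ran from 1.05 to 1.37 for Gadd45a, from 0.62 to 0.84 for Phlda3, from 0.67 to 1.49 for Cdkn1a and from -1.49 to -1.16 for Sesn1. Cdkn1a was not tested where detection on all 12 arrays was required.

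**Figure D5:**
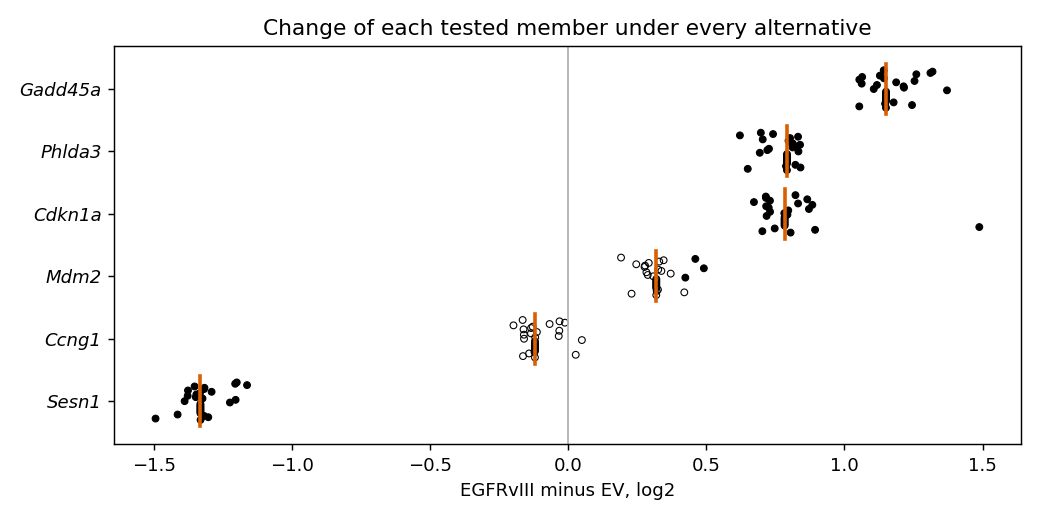
Change of the 6 tested members on the log2 scale under each alternative way of processing (points) and as reported (orange bars). Filled points passed the adjusted p of 0.05 and open points did not. The points of Gadd45a, Phlda3, Cdkn1a and Sesn1 are all filled, Ccng1 has none filled and lies on both sides of 0, and Mdm2 has 3 filled.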

How the data were processed

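RNA of 12 tumours (6 per group) was measured on Illumina RatRef-12 bead arrays, 1 per tumour, from about 100 ng of RNA per the labels. The deposited table holds the average signal intensity per probe, per the file headers. Its values below 0 show that a background had been subtracted. The deposited detection score is a fraction from 0 to 1 and was taken to be 1 minus the detection p. The deposited value table was read from its values as log2 and quantile normalized by the authors. Per the submitters' processing notes Partek was used, in steps the sources used here do not describe.

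Intensities were normalized with neqc of limma 3.58.1, run in R 4.3.3 (background by a normal and exponential model from the detection p, an offset of 16, log2, quantile normalization). The filter kept 11862 of 22523 probes, those detected (p under 0.05) on 6 or more of the 12 arrays. The brightest kept probe stood for a gene, which left 11695 genes, 8383 of them with a symbol. The comparison used lmFit, then eBayes with trend, two-sided, with p-values adjusted by Benjamini-Hochberg over all genes, with 10 residual degrees of freedom. The code was tested on simulated data. The number of arrays limits the precision. The p-values set the difference between the groups against the spread of tumours within them, and do not cover differences between transfections. No scan date was found in the tables and labels used here. Array names end in letters A to L that alternate between the groups, and whether these are chip positions is not stated.

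The members, the lists and the alternatives were chosen with earlier results of these data known. Of the list entries other than members, 193 matched by symbol, 4 by an older name and 42 had no match. Named genes are the members, Egfr, up to 4 called genes with the largest change per pathway list, up to 2 per marker list, and for each called member the 3 genes nearest in pattern. The rat numbers 1 to 6 occur in both groups. After the group means were subtracted, same-numbered rats correlated at -0.34 to -0.06, so no pairing was used. Tried as alternatives were the background step, the normalization, the deposited log2 table, the filter, the probe rule, the rat number as a block, other variance models, array weights, arrays left out and a brain marker covariate. Scaling to the median of the kept probes was added after the data had been seen. Python 3.11.15 and matplotlib 3.10.9 drew the figures.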

Additional observations from a re-analysis of the deposited data

Results flagged for a closer look

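In 9 of 108 groups of 6 tumours examined (54 genes in 2 groups), 1 tumour lay far from the others, its gap to the nearest tumour taking an unusually large share of the group's range. Chance flags about 1 in 20 groups. Among the members, Mdm2 in EGFRvIII rat 1 was at 8.82 against 9.62 to 10.04 in the other 5 (gap 0.659 of the range), Phlda3 in EGFRvIII rat 4 at 9.65 against 9.01 to 9.19 (0.73), and Sesn1 in EV rat 2 at 9.46 against 8.53 to 8.86 (0.649). Ccng1 in EV rat 3 was at 10.99 against 10.35 to 10.59 (0.627), and Bax in EV rat 1 at 5.00 against 4.41 to 4.54 (0.781). Outside the members, the share was 0.68 for Cited2 in EGFRvIII rat 1 (low), 0.667 for Tsc2 in EV rat 1 (low), 0.632 for Plvap in EGFRvIII rat 6 (high) and 0.763 for Tgfa in EV rat 2 (high).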

How the results depend on the processing

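Over 29 alternatives and 52 named genes, 1380 of 1503 changes kept their direction and their side of the threshold, 103 lost the call, 6 gained it and 14 changed sign. The genes with most lost calls were Tsc2 (20), Bok (15), Ppm1d (14), Cdk6 (13), Xpc (12), Wdr24 (10) and Ccnb2 (8), all with an adjusted p between 0.0282 and 0.0492 as reported. Mdm2 gained a call without EGFRvIII rat 1, without that tumour and EV rat 2 (0.46), and with array weights (0.42). Sign changes were all in genes not called. With the median of the kept probes they were Ccng1 (0.027), Tsn (0.065), Morf4l2 (0.081) and Tgfa (0.015), and with array weights Ccng1 (0.050) and Tgfa (0.076). The Tgfa change was also 0.19 in the authors' table, 0.15 without EV rat 2 (from -0.32 to 0.15 with 1 array left out), 0.20 without EV rats 2 and 3, 0.11 without EV rat 2 and EGFRvIII rat 1, and 0.18 with the brain covariate. The Tsn change ran from -0.11 to 0.062 with 1 array left out, above 0 without EV rat 5, EGFRvIII rat 3 or EGFRvIII rat 6. The causes were not tested.

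Among members, 3 were called higher, 4 where Mdm2 gained its call and 2 where detection on all 12 arrays was required, and 1 was lower throughout. Of all genes, 2519 were called, 1819 with the rat number as a replicate block and 1959 to 2506 with 1 array left out. The replicate block kept the calls of all 4 called members. Over the pathway lists 21 genes were higher and 14 lower. Scaling moved them in both directions, to 12 higher and 20 lower with the median of all probes and to 26 higher and 11 lower with the median of the kept probes. Without EV rats 2 and 3, 12 were higher. The number lower was 9 with no filter, 9 with the replicate block, 7 without EV rats 2 and 3, and 9 without EV rat 2 and EGFRvIII rat 1. With 1 array left out it ran from 9 to 13, reaching 9 without EV rat 6, EGFRvIII rat 3 or EGFRvIII rat 4. Scaling moved the balance of calls over all genes, from 1299 higher and 1220 lower to 768 and 1799 with the median of all probes, and to 2157 and 1005 with the median of the kept probes, where the median change of all genes was 0.11. Dim signals limit Cdkn1a, Bax and Sesn2.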
